A study of Mus musculus with 469 samples.

Results

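The libraries described here come from 58 single cells of the mouse olfactory epithelium sorted as OMP-eGFP neurons, chosen from a larger series. There were 20 of 89 libraries labelled as engrafted neurons, from epithelium after transplantation, and 38 of 50 libraries taken 14 days after removal of the olfactory bulb. Members were chosen by 2 measured values. At least 1000 genes had to have a value of 1 or above, and Omp had to reach 100 CPM, where CPM (counts per 10 to the power of 6) is the gene's share of the library's summed signal. Both groups were B6 OMP-eGFP mice, genotype OMP-eGFP+, aged 8 weeks, and the cells were sorted by eGFP fluorescence before capture on the Fluidigm C1 system. The labels do not say which cells were transplanted, at what stage they were grafted, what injury or strain the host had, or how long the graft was left. The rest of the series held Neurog1-eGFP+ progenitors (61 libraries uninjured, 51 at 5 days and 26 at 14 days after bulbectomy). It also held unsorted uninjured epithelium as reference (96 libraries in each of 2 runs). These mice were also aged 8 weeks but were of other strains, FVB for Neurog1-eGFP and a hybrid strain for the reference.

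Olfactory sensory neurons are replaced throughout life from basal progenitors. A young neuron first grows an axon toward the olfactory bulb and expresses growth-associated genes such as Gap43 and Stmn1. It then turns these down and acquires Omp, a cytoplasmic protein of mature neurons, together with the cilia and the cyclic-nucleotide cascade that detect odorants. Removal of the bulb deprives the axons of their target, which is followed by death of mature neurons and a wave of new ones.

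The labels name no animal and no capture run, so each group counted as 1 sample. No difference below has a replicate check, and cells were not used as replicates. Genes at 10 CPM or more are called found. Shares of libraries carry exact Clopper-Pearson 95% intervals, which cover the counting of libraries only. Where a count is 0, the share that 3 libraries would make is given as the limit it allows. The eGFP gate and the Omp limit both act on Omp, and the shares of immature cells in either group can be set by that gate. Fewer cells of a kind and less RNA per cell cannot be told apart in a group mean.

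The rule removed more of the engrafted libraries. The limit on genes removed 60 of the 89 engrafted libraries and 8 of the 50 taken at 14 days, and the limit on Omp then removed 9 and 4. The highest engrafted libraries left out by the Omp limit were at 69.3 and 29.9 CPM, and the lowest kept were at 132.7, 138.9, 143.1 and 706 CPM. In the 14-day group the highest left out were at 95.8 and 50.7 CPM and the lowest kept was at 114.2 CPM.

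Engrafted libraries were shallower. Fragments per library, recovered from the spacing of the deposited values, ran from 13463 to 1410990 with a median of 479338 in the engrafted group, and from 267100 to 2212760 with a median of 1285690 at 14 days. Of the engrafted libraries, 3 held under 100000 fragments, against 0 at 14 days. Genes per library ran from 1125 to 3383 (median 2478) in engrafted neurons and from 1617 to 6168 (median 3438) at 14 days. After each library was thinned to 50000 fragments, which left out 1 engrafted library, the medians were 1932 genes in 19 engrafted libraries and 2624 genes in 38 libraries at 14 days. The gap in gene number was therefore also present at equal depth.

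The name neuron was set beside markers. Every member held some mature neuron marker by the rule itself, since that list includes Omp. In engrafted libraries the G protein gene Gnb1 made up 19362 CPM of the list's mean sum of 45138 CPM. Other cell types were taken as 10 lists, without the immature neuron and neuronal precursor lists. In 2 of 20 engrafted libraries and 0 of 38 at 14 days the summed markers of these 10 lists exceeded the summed mature markers. The first held 779 CPM of mature markers beside 229486 CPM of Rgs5, a gene of the endothelial and pericyte list. It also held 7613 CPM of sustentacular (supporting) cell markers, with Omp at 132.7 CPM. The pericyte genes Pdgfrb, Cspg4 and Vtn were listed at 0 in every member, so Rgs5 alone does not name this library a pericyte. The second held 10973 CPM of mature markers beside 13623 CPM of Bowman gland markers, with Omp at 143.1 CPM. Both stayed in the engrafted group under the rule, and the list medians without libraries of this kind are given with the markers of other cells. Precursor markers alone exceeded mature markers in an engrafted library (53972 and 6883 CPM) and a 14-day library (14632 and 14181 CPM). Most of that was Sox11, at 50461 and 14252 CPM. Immature markers exceeded mature markers in further libraries of both groups, so the 10 lists do not describe stage.

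**Figure D1:**
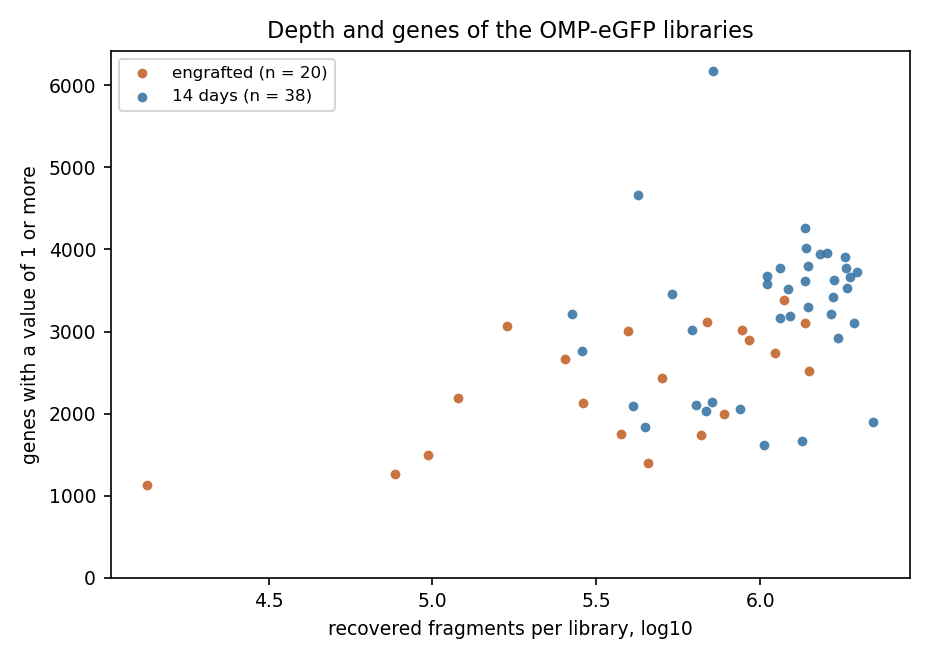
Genes with a value of 1 or more (vertical axis) against recovered fragments (horizontal axis, log10) for each library, engrafted in orange and 14 days in blue. All but 3 engrafted libraries lie above 100000 fragments, and the 14-day libraries reach further right and higher.

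Genes that differ by sex split the groups. Xist, the RNA of the inactive X chromosome, reached 10 CPM in 0 of 20 engrafted libraries (exact interval 0 to 16.8%, and a count of 0 allows up to 15%) and in 31 of 38 at 14 days (81.6%, 65.7 to 92.3). Y-linked genes reached that level in 9 of 20 engrafted libraries (45%, 23.1 to 68.5) and in 0 of 38 at 14 days (exact interval 0 to 9.25%, and a count of 0 allows up to 7.89%). No library had both, and 11 and 7 had neither. Tsix, which overlaps Xist on the opposite strand, was found in 1 of 20 and 24 of 38 libraries, and since the Nextera XT kit does not mark strand its fragments cannot be told from those of Xist. Sex and group cannot be told apart in these libraries, and this applies to every difference below, including the X-linked genes Dcx, Kdm6a and Cnga2.

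Omp chose the members, so its levels are given as a description. In engrafted neurons it ran from 132.7 to 10395 CPM with a median of 3650 CPM, and at 14 days from 114.2 to 5982 CPM with a median of 789 CPM. The groups overlapped, but 16 of the 20 engrafted libraries and 17 of the 38 libraries at 14 days were at 1000 CPM or more. The same limits kept 53 and 59 libraries in the 2 runs of the unsorted uninjured reference, with median Omp of 3837 and 1779 CPM, and 4 of the 26 Neurog1-eGFP libraries of day 14, with a median of 579 CPM. The sustentacular marker Cyp2g1 was found in 67.9% and 81.4% of these reference libraries. In the engrafted and 14-day OMP-eGFP groups it was found in 5% and 7.89%. The reference values below are therefore not a baseline of neurons alone. The reference and Neurog1-eGFP mice also differed in strain from the B6 OMP-eGFP groups, and the effect of strain was not tested.

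Gap43, the growth cone phosphoprotein that marks young olfactory neurons, was found in 6 of 20 engrafted libraries (30%, 11.9 to 54.3) and in 33 of 38 libraries at 14 days (86.8%, 71.9 to 95.6). The other 14 engrafted libraries listed it at 0, and the 6 with Gap43 held 153.5, 416.4, 504, 649, 776 and 2704 CPM. At 14 days it ran from 0 to 2071 CPM with a median of 376.3 CPM. Engrafted values were thus either 0 or at 153.5 CPM and above, and the group means, 260 and 528 CPM, differ less than the shares do. Thinned to 50000 fragments, Gap43 had a fragment in 6 of 19 engrafted libraries and in 32 of 38 at 14 days. In the unsorted reference it was found in 32.1% of 53 and 27.1% of 59 libraries, near the engrafted share. Many of those reference libraries also held Cyp2g1.

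Stmn1, which encodes the microtubule-destabilising protein stathmin, had a larger difference of means. It was found in 9 of 20 engrafted libraries (45%, 23.1 to 68.5) and in 36 of 38 at 14 days (94.7%, 82.3 to 99.4). Engrafted values ran from 0 to 746 CPM with a median of 0.453 CPM, and values at 14 days from 0 to 5199 CPM with a median of 1298 CPM. The means were 97.8 and 1624 CPM, a log2 ratio of −4.04 (engrafted over 14 days, each mean + 1 CPM). The highest engrafted library lay below the 14-day median. In the reference runs the median was 22 and 70.5 CPM, between those of the OMP-eGFP groups.

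Dcx, the microtubule-binding protein doublecortin, and Sox11, a transcription factor of young neurons, showed the same order. Dcx was found in 12 of 20 engrafted libraries and 35 of 38 at 14 days, with medians of 92.3 and 1274 CPM. Its ranges, 0 to 2754 CPM and 5.73 to 8814 CPM, overlapped widely. Sox11 was found in 7 of 20 engrafted libraries (35%, 15.4 to 59.2) and 34 of 38 at 14 days (89.5%, 75.2 to 97.1), with medians of 0 and 2898 CPM. A single engrafted library at 50461 CPM held 85.7% of the group's Sox11, so the means, 2943 and 4258 CPM, differ less than the shares do.

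**Figure D2:**
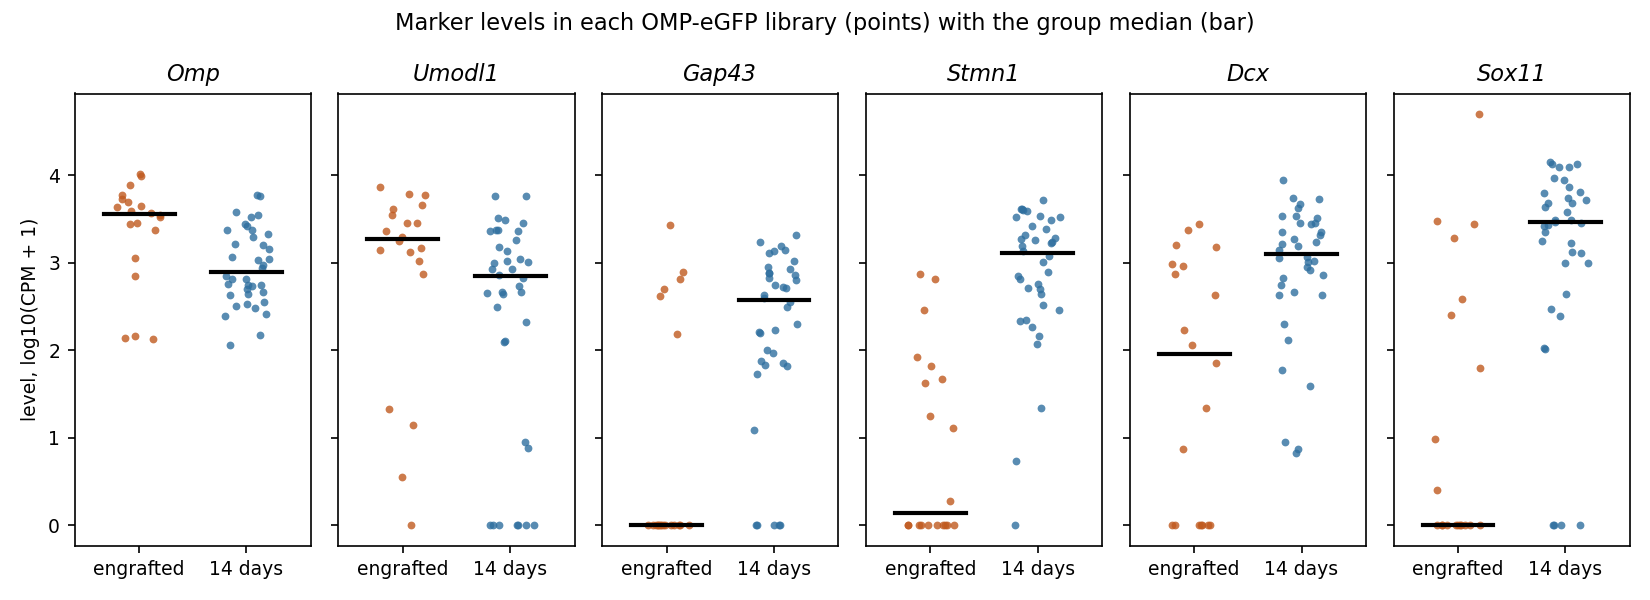
Levels as log10(CPM + 1) in each library (points) with the group median (bar) for the mature markers Omp and Umodl1 and for Gap43, Stmn1, Dcx and Sox11, engrafted in orange (n = 20) and 14 days in blue (n = 38). For Gap43 and Sox11 the engrafted median lies at 0 while a few engrafted libraries reach the 14-day range.

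The shares of libraries with young-neuron genes were also described among libraries with much Omp. Omp had already chosen the members, so a second cut on it cannot tell stage from group. With Omp at 1000 CPM or more, 16 engrafted and 17 14-day libraries remained. Gap43 was found in 3 of those 16 (18.8%, 4.05 to 45.6) and 13 of those 17 (76.5%, 50.1 to 93.2), although its mean was then 210 CPM in engrafted and 197.7 CPM in 14-day libraries, with 1 engrafted library at 2704 CPM. Stmn1 was found in 7 of 16 (43.8%, 19.8 to 70.1) and 15 of 17 (88.2%, 63.6 to 98.5), with medians of 0.453 and 501 CPM. Sox11 was found in 5 of 16 (31.25%, 11 to 58.7) and 14 of 17 (82.4%, 56.6 to 96.2). The intervals overlapped for Stmn1 and for Sox11. For Dcx the shares were closer, 11 of 16 (68.8%, 41.3 to 89) and 15 of 17 (88.2%, 63.6 to 98.5), and the intervals overlapped.

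Within each group, libraries with more Omp tended to hold less Gap43. The Spearman correlation over libraries was −0.48 in engrafted (n = 20) and −0.58 in 14-day neurons (n = 38). Gap43 and Stmn1 went together, at 0.69 and 0.59, whereas Omp and Stmn1 gave −0.18 and −0.41. These values describe libraries of 1 sample each that were selected on Omp. Correlations of Gap43 with the number of fragments were −0.11 and 0.02.

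Across all genes, the comparison leaned toward lower levels in engrafted neurons. Of 23281 genes, 9373 had a mean of 5 CPM or more in at least 1 group. Of these, 1981 (21.1%) had a mean at least 2-fold higher in engrafted neurons and 3664 (39.1%) at least 2-fold lower, and the median log2 ratio was −0.46. List medians below are read beside that −0.46, and list counts beside 21.1% and 39.1%. Many of these ratios rested on 1 library. A single engrafted library held at least 50% of the group's CPM for 1568 (79.2%) of the higher genes, and a single 14-day library did so for 1769 (48.3%) of the lower ones.

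Genes of the mature neuron sat near equal levels. Of 22 mature markers, 21 passed the filter on low values (a mean of 5 CPM in either group), 2 were 2-fold higher in engrafted neurons, 1 was 2-fold lower, and the median log2 ratio was 0.18. When means of log2(CPM + 1) were compared instead, the list median was −0.64 beside −0.42 for all genes, and with no limit on Omp it was −0.27. Of the 2 higher markers, Omp had chosen the members, and it counts in these list medians. The other was Umodl1, a membrane protein of olfactory neurons. It ran from 0 to 7334 CPM with a median of 1889 CPM in engrafted neurons, and from 0 to 5889 CPM with a median of 703 CPM at 14 days. Its means were 2486 and 1200 CPM, a log2 ratio of 1.05, and it was found in 18 of 20 and 29 of 38 libraries with overlapping intervals. The lower one was Slc24a4, the sodium-calcium exchanger of the olfactory cilium, which was listed at 0 in every engrafted library and found in 3 of 38 at 14 days.

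The transduction cascade showed little difference. Of 24 genes of odorant transduction, 19 passed, 0 were 2-fold higher and 2 were 2-fold lower, with a median log2 ratio of −0.02. The summed level of the list ran from 4794 to 92221 CPM (median 53374) in engrafted and from 17031 to 71870 CPM (median 44954) in 14-day libraries. Gnal, the alpha subunit of the olfactory G protein, had means of 6234 and 5232 CPM. Its beta partner Gnb1 had 19362 and 16419 CPM. Adcy3, the cyclase that makes cyclic AMP, had 247.6 and 203.7 CPM, and Cnga2, the main subunit of the cyclic-nucleotide-gated channel, had 1298 and 1414 CPM. The 2 lower ones were Slc24a4 and the phosphodiesterase gene Pde2a, which was listed at 0 in every engrafted library and found in 1 of 38 at 14 days. Of the genes higher in engrafted neurons, the largest ratios were those of Cnga4, a modulatory subunit of that channel, with 423.4 and 213.6 CPM (log2 ratio 0.98), and of the calmodulin gene Calm2, with 8737 and 4720 CPM (log2 ratio 0.89).

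Many genes of the mature neuron carry near their start the palindrome CCCNNGGG, the core bound by EBF proteins, transcription factors of the olfactory lineage. The palindrome reads the same on both strands. The 250 bases before each start were searched in the RefSeq promoter table (GRCm38.p6, a later build than that of the deposited files), in which 19 of the 22 mature markers had an entry. Of these, 9 (47.4%) held the palindrome, against 3629 of 27025 genes (13.4%) in the whole table. Among the other lists searched it was 8 of 15 (53.3%) for odorant transduction, which shares genes with the mature list, 5 of 15 (33.3%) for immature markers and 2 of 19 (10.5%) for the growth cone list, so it was not limited to mature markers. The first match in each of the 9 markers is shown with 8 bases on either side, to let the shared core and the differing flanks be seen, 5′ to 3′ on the gene's strand with the match in capitals.
Ano2, chr6:125711113-125711136 (+): gggaacacCCCGAGGGatggaggc
Cnga2, chrX:71991775-71991798 (+): gggagagtCCCTTGGGgagcttgg
Cngb1, chr8:95306699-95306722 (-): ctgctggaCCCGTGGGggttgctg
Gng13, chr17:25717069-25717092 (+): atgtcccaCCCCAGGGgagacctg
Pde4a, chr9:21183853-21183876 (+): acaaatgtCCCTTGGGtttgattc
Reep1, chr6:71707608-71707631 (+): gcagccctCCCTGGGGgttcggag
Rtp2, chr16:23930981-23931004 (-): tccgtcagCCCATGGGttggatct
Slc24a4, chr12:102128610-102128633 (+): ggcgagcgCCCTAGGGgaggtgta
Umodl1, chr17:30954519-30954542 (+): gcaggcgcCCCCAGGGacacagcc
Cngb1 was listed at 0 in every member, and the other 8 genes did not move together between the groups. Their log2 ratios ran from −4.67 for Slc24a4 through −0.99 for Reep1, −0.12 for Cnga2 and 0.28 for Rtp2 to 1.05 for Umodl1. The EBF genes themselves had similar means in engrafted and 14-day neurons, with 778 and 678 CPM for Ebf1, 2563 and 2883 CPM for Ebf2, 264.2 and 222.7 CPM for Ebf3, and 117.3 and 121.3 CPM for Ebf4. A match is a description of the letters and not a measured site.

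As a list, the immature markers leaned further down than all genes, by an amount that varied with the settings. Of 22 immature markers, 21 passed the filter, 10 (47.6%, against 39.1% of all genes) were 2-fold lower and 4 (19%, against 21.1%) were 2-fold higher. These shares were near the background. The median log2 ratio was −0.85 beside −0.46 for all genes. Among libraries with 2000 or more genes (13 engrafted and 34 at 14 days) it was −0.49 beside −0.48, so the list did not lie apart there. With a mean of 50 CPM required, the list median was −1.03 beside −0.21 for all genes. Of 12 markers 7 were then 2-fold lower, against 30.2% of all genes, and 1 was higher, against 21.7%. With Omp at 1000 CPM or more the median was −1.09 beside −0.33. The list's summed level ran from 334.9 to 18984 CPM (median 4430) in engrafted and from 1652 to 27462 CPM (median 11580) in 14-day libraries. Stmn2, a relative of stathmin in growth cones, was found in 10 of 20 and 36 of 38 libraries, with medians of 6.79 and 673 CPM. Tubb3, neuronal beta-tubulin, was found in 16 of 20 and 35 of 38, with means of 328.9 and 593 CPM. Marcks, a membrane-bound actin regulator, had medians of 6.51 and 1433 CPM. The 4 higher members, Nhlh2, Trib3, Ablim1 and Gnas, were found in 2 to 5 engrafted libraries each, and for the transcription factor Nhlh2 a single library held 88.4% of the CPM.

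The growth cone and microtubule list overlaps the immature list and leaned the same way. Of its 29 genes, 28 passed the filter on low values, 14 (50%, against 39.1% of all genes) were 2-fold lower and 0 were 2-fold higher, and the median log2 ratio was −0.96. Among libraries with 2000 or more genes the median was −0.57 beside −0.48 for all genes. Tubb5, a beta-tubulin, was found in 8 of 20 engrafted libraries and 30 of 38 at 14 days, with means of 194.1 and 564 CPM. Tubb2b had means of 7.88 and 68.3 CPM. Mapt, which encodes tau, had 0.864 and 39.7 CPM. The more abundant cytoskeletal genes differed less. Tuba1a, an alpha-tubulin, had medians of 2460 and 5765 CPM, Map1b, a microtubule-associated protein, had means of 12948 and 14273 CPM, and Actb, beta-actin, had 1485 and 1570 CPM.

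**Figure D3:**
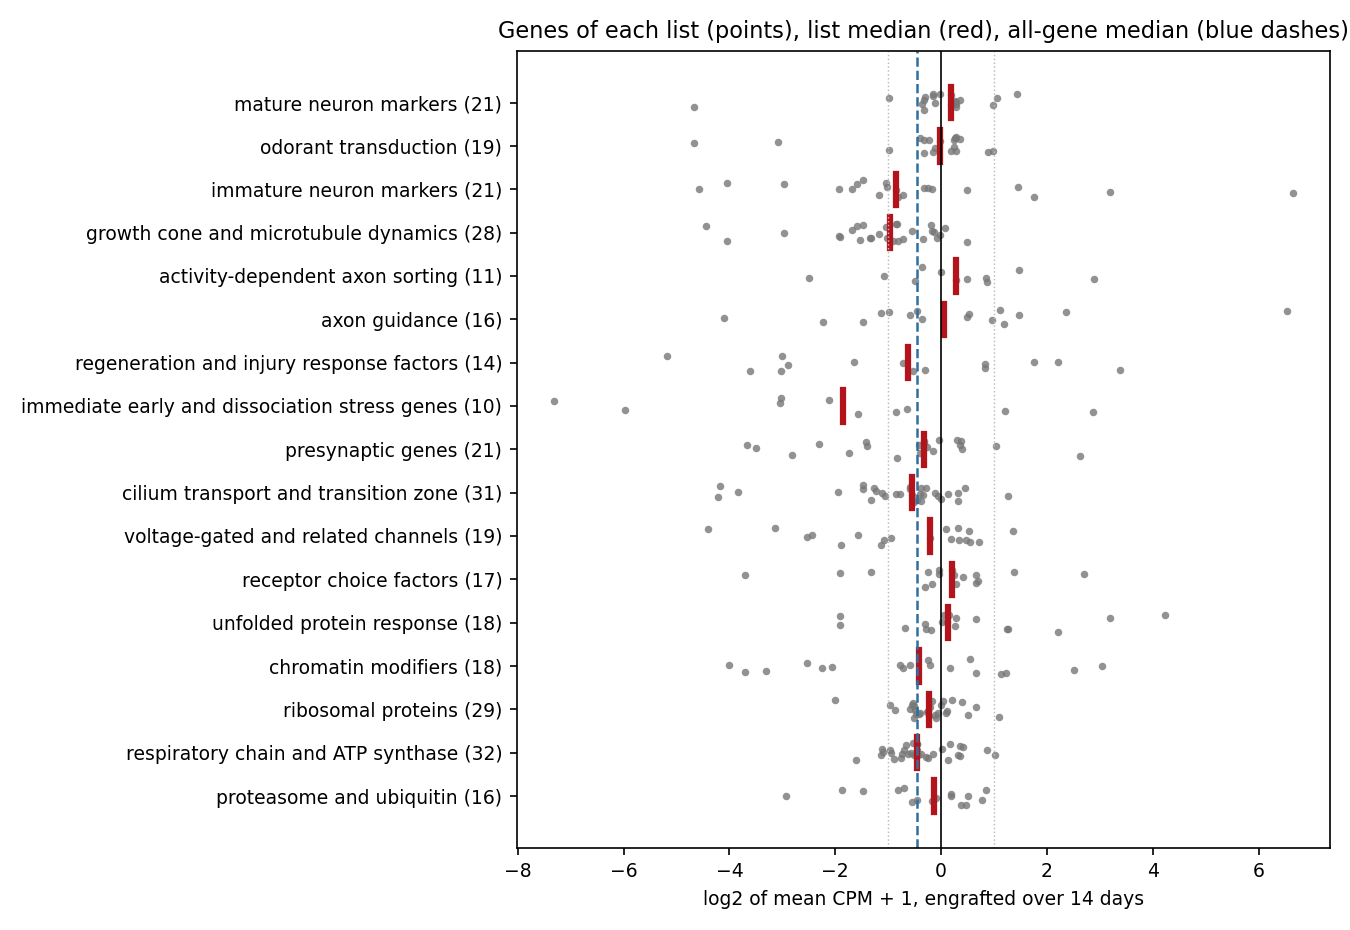
Log2 ratio of mean CPM + 1, engrafted over 14 days, for each gene that passed the filter (points) of 17 lists, with the list median in red, the median of all 9373 genes as a blue dashed line at −0.46, and dotted lines at 2-fold. The medians of the growth cone, immature marker and immediate early lists lie left of the all-gene line, and those of the mature marker and transduction lists lie right of it near 0.

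Of the genes that guide and sort olfactory axons, the activity-dependent list was close to equal. Of 11 genes that passed, 2 were 2-fold higher and 2 lower, with a median log2 ratio of 0.28. Efna5, which encodes the axon-repelling ligand ephrin-A5, had means of 2826 and 1024 CPM (log2 ratio 1.46) and medians of 1406 and 610 CPM. It was found in 18 of 20 and 32 of 38 libraries, and 1 engrafted library at 20088 CPM held 35.5% of the group's total. The adhesion genes Kirrel2 and Kirrel3 had means of 176.7 and 228.7 CPM and of 80.9 and 44.3 CPM. Plxnb2, a semaphorin receptor, was lower, with means of 54.6 and 311.8 CPM. Of 16 axon guidance genes, 5 were 2-fold higher and 4 lower. Robo2, a receptor for Slit proteins, had means of 521 and 101.2 CPM but was found in only 5 of 20 and 8 of 38 libraries.

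The axon injury response as a list was near the background, while Jun and Mapk8 were lower in engrafted neurons. Of 20 regeneration and injury factors, 14 passed the filter, 6 (42.9%, against 39.1% of all genes) were 2-fold lower and 3 (21.4%, against 21.1%) were 2-fold higher. The median log2 ratio was −0.63. Jun, the transcription factor at the end of the JNK cascade, was found in 6 of 20 engrafted libraries (30%, 11.9 to 54.3) and 32 of 38 at 14 days (84.2%, 68.7 to 94). It ran from 0 to 89.5 CPM in engrafted and from 0 to 507 CPM in 14-day libraries, with medians of 0 and 65.9 CPM. Thinned, it had a fragment in 6 of 19 and 28 of 38 libraries. Mapk8, which encodes the kinase JNK1, was found in 3 of 20 (15%, 3.21 to 37.9) and 21 of 38 (55.3%, 38.3 to 71.4), with means of 12 and 468.3 CPM. A 14-day library at 6895 CPM held 38.7% of the Mapk8 total. Thinned, Mapk8 had a fragment in 3 of 19 (3.38 to 39.6%) and 21 of 38 libraries (38.3 to 71.4%), and these intervals overlapped. Map3k12, the upstream kinase DLK, had means of 24 and 185.4 CPM. The 3 higher genes, Stat3, Cebpb and Klf6, were found in 4 or 5 engrafted libraries each. In the unsorted reference, where many libraries also held Cyp2g1, Jun was found in 73.6% and 93.2% of the libraries under the same limits.

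Immediate early genes, a list that also holds Jun, were mostly lower in engrafted neurons among those that passed the filter on low values. Of 18, 10 passed the filter, 6 (60%, against 39.1% of all genes) were 2-fold lower and 2 higher, with a median log2 ratio of −1.85. The size of this depended on the filter. Without it, 6 of 16 genes were 2-fold lower, against 34.2% of all genes, and the median was −0.76 beside −0.32 for all genes. With a mean of 50 CPM required, the median was −2.58 over 6 genes. Egr1 was listed at 0 in every engrafted library (0 of 20, with an exact interval of 0 to 16.8%) and was found in 7 of 38 at 14 days. Btg2 was found in 1 of 20 and 11 of 38 libraries. Dusp1, a phosphatase that acts on MAP kinases, was found in 4 of 20 and 18 of 38. The list also responds to dissociation, and the labels give 1 dissociation protocol without times or order for each group, so handling and group cannot be told apart here.

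Presynaptic, ciliary and channel genes had more lower than higher members. The lower shares, 33.3%, 35.5% and 42.1%, were near the 39.1% of all genes. The higher shares, 9.52%, 3.23% and 5.26%, lay below the 21.1% of all genes. Of 21 presynaptic genes, 7 were 2-fold lower and 2 higher. Syt1, the calcium sensor of vesicle release, had means of 136.4 and 363.8 CPM, Pclo, an active zone scaffold, had 265.9 and 717 CPM, and Snap25, part of the fusion machinery, had 1838 and 2433 CPM. Of 31 genes of ciliary transport, 11 were 2-fold lower and 1 higher, with a median log2 ratio of −0.55. Bbs4, a BBSome subunit, was found in 5 of 20 and 26 of 38 libraries, with means of 112.9 and 316.5 CPM. Arl13b, a ciliary GTPase, was found in 2 of 20 and 16 of 38. Of 19 channel genes, 8 were 2-fold lower and 1 higher. Scn9a, the main sodium channel of olfactory axons, was found in all 58 libraries, with medians of 2681 and 2923 CPM, while Scn3a had medians of 0 and 116.5 CPM and the potassium channel gene Kcna2 medians of 5.70 and 166.9 CPM.

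Factors tied to receptor choice were mostly near equal. Of 17 that passed, 2 were 2-fold higher and 3 lower. Lhx2, a homeodomain factor that binds receptor gene enhancers, had means of 263.8 and 162.8 CPM, and its cofactor Ldb1 had 17.4 and 10.7 CPM. Kdm1a, the histone demethylase needed for receptor activation and later switched off, was found in 2 of 20 and 17 of 38 libraries, with means of 7.69 and 112.7 CPM. The 3 heterochromatin protein genes of the list did not move together. Cbx5 (HP1 alpha) was found in 9 of 20 (45%, 23.1 to 68.5) and 6 of 38 libraries (15.8%, 6.02 to 31.3), with means of 246.7 and 37.2 CPM. Cbx3 (HP1 gamma) was found in 17 of 20 and 35 of 38, with means of 487 and 187.9 CPM. Cbx1 (HP1 beta) was lower, found in 8 of 20 and 19 of 38, with means of 20.1 and 51.8 CPM (log2 ratio −1.32). Among 18 chromatin modifiers 4 were higher and 6 lower, with the X-linked demethylase gene Kdm6a at means of 28.3 and 472 CPM. Of 18 genes of the unfolded protein response, 5 were higher and 2 lower. The chaperone Canx had medians of 3743 and 1174 CPM, and Xbp1, the stress-induced transcription factor, was found in 5 of 20 and 4 of 38 libraries.

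General metabolic lists were closer to equal than the growth lists. Of 29 ribosomal protein genes, 1 was 2-fold higher and 1 lower, with a median of −0.22. Of 32 genes of the respiratory chain and ATP synthase, 1 was higher and 4 lower, with a median of −0.45. Of 16 genes of the proteasome and ubiquitin, 0 were higher and 3 lower. The neuronal ubiquitin hydrolase gene Uchl1 was among the lower ones, found in 10 of 20 and 34 of 38 libraries with medians of 9.23 and 103.5 CPM.

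A rule of size over all genes named further genes. It took genes with a mean of 50 CPM and a share of 40% in the higher group whose share intervals did not overlap, ranked by the ratio of means. Only 1 gene, Wdr17, met it as higher in engrafted neurons, against 74 as lower. How many genes could have met the rule in each direction is not given, so these counts have no background. All genes leaned the same way, with a median log2 ratio of −0.46. Engrafted libraries were also fewer and shallower, and the effect of this on the counts was not tested. Wdr17 was found in 16 of 20 engrafted libraries (80%, 56.3 to 94.3) and 9 of 38 at 14 days (23.7%, 11.4 to 40.2), with medians of 266.8 and 0 CPM. Among the 12 lowest ratios were Vim, the intermediate filament vimentin, found in 0 of 20 and 16 of 38 libraries, Cdh2, the adhesion protein N-cadherin, found in 4 of 20 and 27 of 38, and Camk2n1, an inhibitor of CaM kinase II, found in 2 of 20 and 21 of 38. Coch, Drg1, Ccdc47, Edc4, Rfc2, Mapk8, Stmn1, Xist and Tsix completed the 12. The mean of Coch was 33.4 CPM in engrafted and 599 CPM in 14-day members. The order reversed to a log2 ratio of 1.92 when the limit on Omp was dropped.

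**Figure D4:**
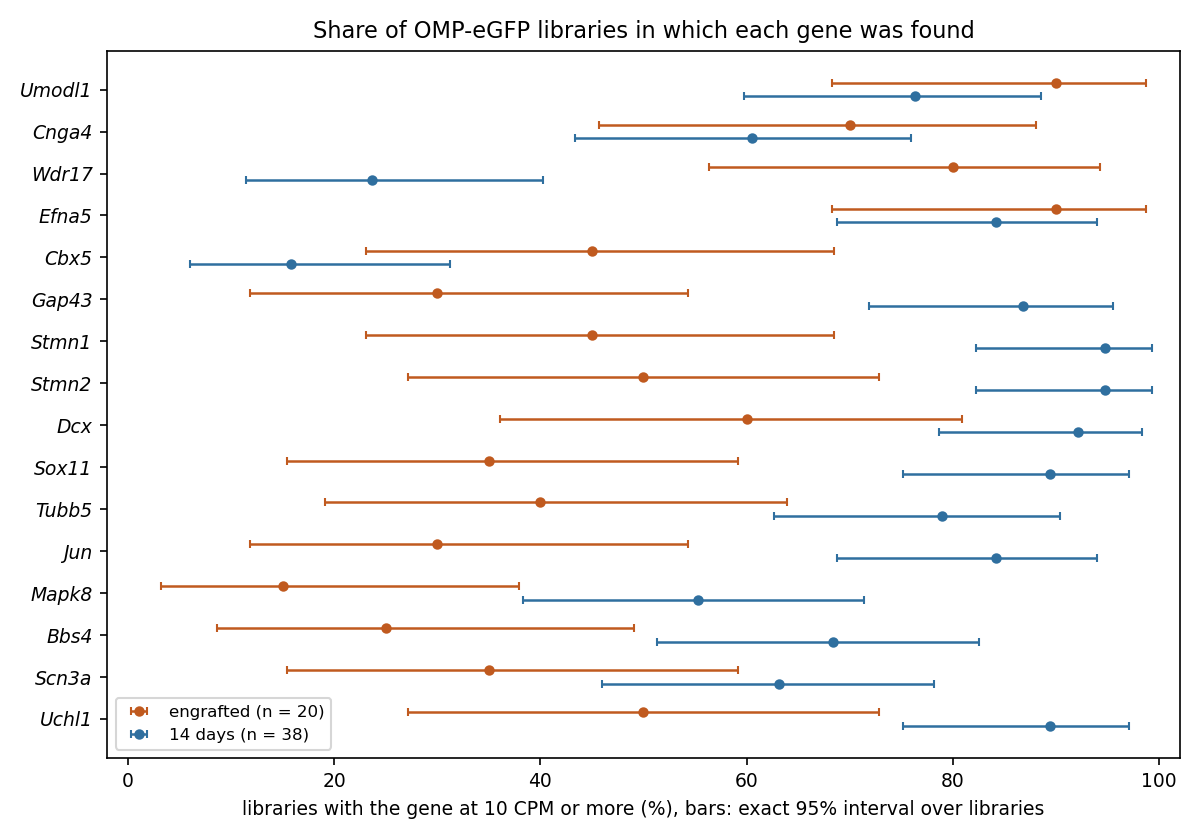
Share of libraries with the gene at 10 CPM or more (points) with exact 95% intervals over libraries (bars), engrafted in orange (n = 20) and 14 days in blue (n = 38). The intervals do not overlap for Wdr17, Gap43, Stmn1, Stmn2, Sox11, Jun, Mapk8, Bbs4 and Uchl1, and overlap for Umodl1, Cnga4 and Efna5.

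For genes found in at least 60% of both groups, 553 in all, the medians could be compared. Of these, 10.8% had a median at least 2-fold higher in engrafted neurons and 28.4% at least 2-fold lower. The highest ratio was that of Traf3ip1, a component of intraflagellar transport, with medians of 916 and 37.5 CPM and means of 866 and 144.7 CPM. Myo6, a motor that moves toward the minus end of actin, had medians of 984 and 114.9 CPM. Ppp1cb, a catalytic subunit of protein phosphatase 1, had 1217 and 190 CPM, and Dcdc2a, a doublecortin-domain protein, had 463.6 and 101.2 CPM. Btg1, Prpf4, Tra2b, Mtpn, Dctn4, Fam120a, Omp and Cnga4 completed the 12 highest, with log2 ratios of medians from 1.99 for Cnga4 to 3.51 for Btg1, which ranked next after Traf3ip1. The lowest ratio was that of Dcx, and Sfpq, an RNA-binding splicing factor, had medians of 16.3 and 145.5 CPM. Tardbp, which encodes the RNA-binding protein TDP-43, had 44.1 and 252.8 CPM, and Ctnnb1, beta-catenin, had 27.9 and 215.9 CPM. Hipk1, Rab6b, Actr10, Spef2, Cpsf6, Dnm1l, Cebpg and Ttll7 made up the rest. Means and medians did not always point the same way. In the lower set the log2 ratios of means were 0.77 for Cpsf6, 0.37 for Dnm1l, 0.15 for Cebpg and 0.030 for Actr10, and without the highest library of each group they were −0.27, −0.21, −0.24 and −0.22. In the higher set Mtpn had −0.043, and 0.21 without those libraries.

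Each mature olfactory neuron is known to express 1 odorant receptor gene out of a very large family. In both groups a leading receptor held most of the receptor CPM in most libraries. At 14 days, however, most libraries held more than 1 receptor gene at 50 CPM or more. Of 1116 receptor entries, the leading one had a median of 6554 CPM in engrafted and 6141 CPM in 14-day libraries. It held a median of 99.3% and 96.9% of all receptor CPM in the library. Exactly 1 receptor gene at 50 CPM or more was seen in 12 of 20 engrafted libraries (60%, 36.1 to 80.9) and 13 of 38 at 14 days (34.2%, 19.6 to 51.4), and the intervals overlapped. A further 2 engrafted and 13 14-day libraries held 2 receptors, and 5 and 12 held 3 or more, up to 6 in each group. The leading receptor took at least 90% of receptor CPM in 16 of 20 (80%, 56.3 to 94.3) and 26 of 38 (68.4%, 51.3 to 82.5) libraries. Thinned to 50000 fragments, exactly 1 receptor gene at 50 CPM or more was seen in 12 of 19 engrafted libraries (63.2%, 38.4 to 83.7) and 14 of 38 at 14 days (36.8%, 21.8 to 54), so the shares stayed apart by about as much at equal depth and their intervals again overlapped. In 1 engrafted library no receptor reached 50 CPM, with or without thinning.

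The leading receptors were diverse. The 20 engrafted libraries led with 20 different receptors and the 38 libraries at 14 days with 34. Only 1 receptor entry led in both groups, the pseudogene entry Olfr1372-ps1. Olfr180 led in 3 libraries at 14 days and was at 50 CPM or more in 9 of them, and it was listed at 0 in every engrafted library. Receptor genes have close relatives, and how the authors' processing divided fragments among near-identical copies is not given in the sources used here, so a second receptor may share fragments with the first.

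**Figure D5:**
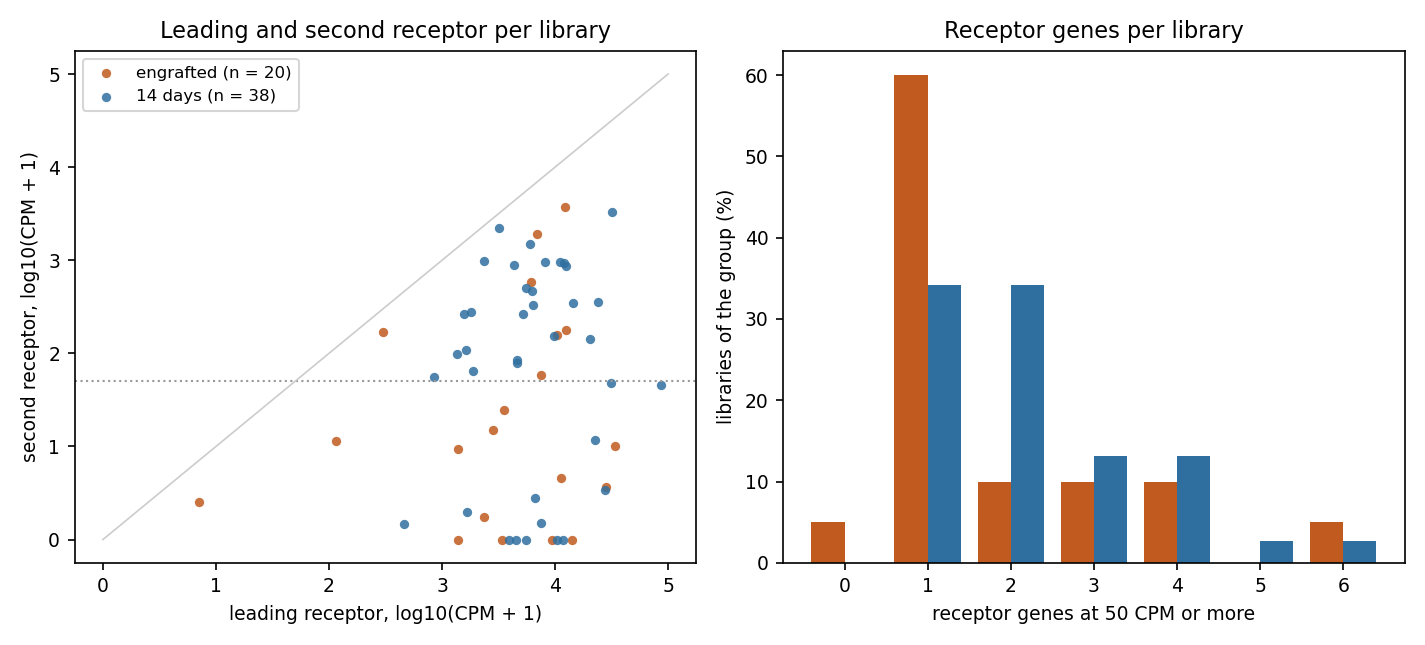
Left, leading against second receptor in each library as log10(CPM + 1), with a dotted line at 50 CPM and a grey line of equality; right, percent of libraries of each group by the number of receptor genes at 50 CPM or more. Most libraries lie far below the line of equality, and 1 receptor is the commonest number in engrafted neurons (60%).

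Markers of most other cell types were low in most members and strong in a few. The summed sustentacular list ran from 0 to 7613 CPM in engrafted and from 0 to 37314 CPM in 14-day libraries, with medians of 0.0473 and 0 CPM, and 3 of 20 and 4 of 38 libraries were at 100 CPM or more. Bowman gland markers reached 100 CPM in 5 of 20 engrafted libraries, up to 13623 CPM, and in 0 of 38 at 14 days. The respiratory ciliated and secretory list, which also holds Bpifa1, was more widely present. Its sum had medians of 45.4 and 40.6 CPM, reached 100 CPM in 7 of 20 and 11 of 38 libraries, and was highest at 18189.5 CPM in an engrafted library and 710 CPM at 14 days. Dynlrb2, a dynein light chain gene of that list, was found in 7 of 20 and 17 of 38 libraries. The gland markers were led by Bpifa1, a secreted protein of gland and airway epithelium, found in 5 of 20 and 1 of 38 libraries. Rgs5, of the endothelial and pericyte list, was at 229486 CPM in 1 engrafted library and below 2 CPM in every 14-day library. Pdgfrb, Cspg4 and Vtn of that list were at 0 in every member. Horizontal basal cell, immune, glial and erythroid lists had no member at a mean of 5 CPM in either group, and their summed levels reached 157.6 CPM in the highest library. Pou2f3, a transcription factor of microvillar cells, was found in 11 of 38 libraries at 14 days and in 0 of 20 engrafted ones. The rest of the microvillar list did not go with it. Trpm5, Chat, Ascl3, Foxi1 and Alox5ap were listed at 0 in every member. Engrafted and 14-day means were 0 and 0.0985 CPM for Avil and 0.0644 and 0 CPM for Cftr. Krt18, which is also in the sustentacular list, had 35.9 and 48.8 CPM. Without the 3 engrafted and 2 14-day libraries at 1000 CPM or more of support-cell markers, the list medians were 0.37 for mature markers, −0.71 for immature markers and −0.82 for growth cone genes.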

How the data were processed

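The series holds single-cell RNA libraries captured on the Fluidigm C1 system and prepared with Nextera XT, per the labels' protocols. The authors deposited a table of signal, estimated fragments per gene scaled to a nearly equal total in every library (563263 to 640608 in the members), and a table of FPKM values. The submitters' processing notes list genome build mm9 and the tools STAR 2.5.2a, FastQC, Cuffnorm and Cufflinks 2.2.1, without their order. Annotation and strand setting were not given in the sources used here. A design written for counts allowed for whole counts in the first table. Only 0.0905% of its nonzero values were whole numbers, so no count model was used.

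Columns were matched to libraries by the number in the title. Signal was divided by the column sum to give CPM, and 27 entries with names altered into dates (0.478% of signal) were left out. The value of 1 fragment was found in each library as the common step of its low values, and 97.1% to 99.4% of those values were whole multiples within a tolerance of 0.02. At the median depths, 10 CPM stood for 4.79 fragments in engrafted and 12.9 fragments in 14-day libraries, so a gene near 10 CPM could be missed more often in engrafted cells. Ratios are log2 of mean CPM + 1. No pair of members held identical values. With each group as 1 sample, no p-value was computed across cells or genes, and calls are 2-fold ratios. Formulas were checked on simulated data. No fit with a block was possible.

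The members, 31 gene lists and named genes were chosen with earlier results of these data known. Named genes were the 12 highest and lowest ratios of means (50 CPM and 40% of libraries in the higher group, share intervals apart), the 12 highest and lowest ratios of medians (found in 60% of both groups), and list members, leaving out receptor, Gm, Rik, mitochondrial and date names. Of 498 list genes, 3 were not matched in the table. Alternatives covered the pseudocount, filters, limits on genes and Omp, mean of logs, FPKM, thinning and left-out libraries. Python 3.11.15, numpy 2.4.6, pandas 2.3.3, scipy 1.17.1 and matplotlib 3.10.9 were used.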

Additional observations from a re-analysis of the deposited data

How the results depend on the processing

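Of 9373 genes, 21.1% were 2-fold higher and 39.1% 2-fold lower in engrafted neurons. With a mean of 50 CPM required, which leaves 4385 genes, the shares were 21.7% (951 genes, against 1981) and 30.2% (1326, against 3664). For means of log2(CPM + 1) they were 2.81% and 23.01%, and the mature marker median was −0.64. Without the highest cell of each group for each gene, 11.5% (820 genes) were 2-fold higher, and the immature marker median was −1.71 beside −1.06 for all genes. The other alternatives left both counts within 1.5 times. The immature marker median stayed below 0 under each of the 15 alternatives (−1.71 to −0.49), but with 2000 or more genes per library its −0.49 lay beside −0.48 for all genes, and the growth cone median was −0.57. The mature marker median ranged from −0.64 to 0.37 and was also below 0 with no limit on Omp (−0.27) and without the highest cells (−0.017). The median of the retinoid and xenobiotic list, 1.26 over 6 genes, turned to −0.10 without the filter on low values, −2.11 at a mean of 50 CPM, −1.35 with Omp at 1000 CPM or more, −0.0096 for means of logs and −0.98 without the highest cell. With Omp at 1000 CPM or more, the log2 ratio of Gap43 was 0.087 and that of Bbs4 0.053. With no limit on Omp, Coch was at 1.92 and Ctnnb1 at 0.29, and with 2000 or more genes Fam120a was at −0.15. Apart from these constructions the cause was not tested. Of 60 named genes with a 2-fold ratio, 55 kept their direction under each of 15 alternatives. Leaving out libraries under 100000 fragments, and libraries with 1000 CPM or more of support-cell markers, were alternatives chosen after seeing the data. They gave 1862 and 1839 genes 2-fold higher, and 3734 and 3585 lower. No paired analysis was possible because the library numbers are unique and no number is shared between the groups. Each group is 1 sample without a named animal, so the spread between animals is unknown. Depth limits genes near 10 CPM in the engrafted group.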

Other observations

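Of 17 precursor markers, 7 passed the filter on low values, with 1 2-fold higher and 2 lower in engrafted neurons. The lower ones were Tex15, listed at 0 in every engrafted library and found in 3 of 38 at 14 days (mean 157.1 CPM, 96.3% of it from 1 library), and Ezh2, found in 2 of 20 and 9 of 38 libraries with means of 5.55 and 64 CPM. Insm1, a zinc finger factor of neuronal precursors, was found in 4 of 20 and 17 of 38 libraries, with means of 49.3 and 85.7 CPM. Mki67, a proliferation gene, had a mean of 42.3 CPM in engrafted neurons, all of it from 1 library. Interferon and antigen presentation genes showed 1 of 7 higher and 3 lower. B2m, the light chain of class I molecules, was found in 6 of 20 and 9 of 38 libraries.

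Receptor entries recurred across the 14-day libraries more than the leading receptors alone show. At 50 CPM or more, 6 receptor entries were seen in 3 or more of the 38 libraries at 14 days, and 0 in 3 or more of the 20 engrafted ones. Olfr180 was in 9 libraries at 14 days, up to 27507 CPM, and Olfr1372-ps1 in 6 at 14 days and 2 engrafted ones. The shared animals and capture runs of these libraries are not named in the labels, and the difference between groups of unequal size was not tested.

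The engrafted library with Rgs5 at 229486 CPM also held 7613 CPM of sustentacular markers and 3731 CPM of Bowman gland markers. Among the 14-day libraries, 1 held 37314 CPM of sustentacular markers, and another, with 6168 genes, held 4412 CPM. All 3 also passed the Omp limit.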
